A study of Mus musculus with 8 samples.

Results

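Livers of 456-day-old mice were compared with livers of 90-day-old mice, all on a diet with 21% corn oil. The comparison used 4 of the 8 arrays of the study, F1 21% D456 and F3 21% D456 against F1 21% D90 and F3 21% D90, chosen by their diet label and matched by generation. Each of these arrays held liver total RNA of female C57/BL6 mice of the named generation (F1 or F3) and age, taken after a 6 h fast and hybridised to an Illumina bead array. All 4 groups shared strain, sex and the 21% (w/w) corn oil diet, and the other 4 arrays were the same combinations at 5% corn oil. Whether RNA of several animals was pooled, and when the diet began, was not in the labels. There were 2 arrays per age and 1 per age and generation, so a p-value reflects the spread of the arrays and not that of animals.

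The liver makes most plasma proteins, bile acids and lipids, and many of its genes follow growth hormone secretion, which is pulsatile in male and steadier in female mice. Genes of the male pattern, such as those for several steroid-metabolising enzymes and urinary proteins, are normally low in adult females. The acute phase response is a second, fast programme: cytokines induce hepatocytes to secrete serum amyloid A, orosomucoid and lipocalin 2. Lipid synthesis, bile acid synthesis and clock genes follow feeding and time of day.

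Intensities were deposited on a linear scale and were used as log2 values, so a difference of 1 is a doubling. Each array had a mean intensity of 456.9, and the medians of the 4 arrays lay between 123.2 and 123.4. After removal of dim probes 8945 genes were measured. All 8 hepatocyte markers passed the filter, with a median log2 intensity between 13.51 and 13.75, so the arrays fitted their liver label. The Fgb probe, at 6.92 to 7.085, lay near the filter bound of 6.95, and the Alb probe read 8.09 to 8.49. The 18 pancreatic acinar markers had a median log2 intensity between 6.90 and 7.0 and a summed intensity between 2908.2 and 3327.8; the exceptions to this low level were Cela1, at 9.34 to 10.1, Cela2a, at 7.54 to 7.91, and Reg1, at 8.33 on F3 21% D456. The 12 skeletal muscle markers had summed intensities between 1468.4 and 1716.1. No background had been subtracted, so differences of dim genes are understated.

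The F1 21% D90 array differed from the other 7 arrays in a Y-linked probe and in several genes of the male liver pattern. Whether the array matched its label was not tested. The Y-linked gene Eif2s3y, which female tissue lacks, had a log2 intensity of 7.37 there and between 6.77 and 6.82 on the other 7 arrays, although its probe was too dim to pass the filter. Kdm5d, also Y-linked, read 6.93 there and between 6.86 and 6.89 elsewhere, whereas Uty read 6.94, inside the range of 6.93 to 7.01 elsewhere. Xist, the RNA of the inactive X chromosome, read 8.10 there and from 7.98 to 8.63 elsewhere. Of 17 measured genes of the male liver pattern, 15 were highest of all 8 arrays on F1 21% D90. The list was chosen with earlier results of these data known, and the share of all genes highest on that array was not counted. For 2 of the 17, Cyp4a12a and Elovl3, the other 7 arrays lay below the filter bound of 6.95, so the filter let them in through that array alone and their place was fixed by it; of the other 15 genes, 13 were highest there. The part of these genes in the results was not tested. The F3 pair does not hold that array, and its values stand beside those of the F1 pair.

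The question of the comparison was which liver transcripts differ between the 2 ages on the high-fat diet, and whether the F1 and F3 pairs show the same ones. A difference is the day 456 array minus the day 90 array of 1 generation, and the minimum was 0.5 on the log2 scale (1.414-fold) in both pairs. In the F1 pair 150 genes were higher by at least 0.5 (1.68% of 8945) and 117 were lower (1.31%). In the F3 pair 83 were higher (0.928%) and 103 were lower (1.15%). Past the minimum in both pairs, 26 genes were higher at day 456 (0.291% of genes), 30 were lower (0.335%), 8 were higher in F1 and lower in F3 (0.0894%) and 10 were lower in F1 and higher in F3 (0.112%). At any size, 22.0% of genes were higher in both pairs, 22.5% lower in both, 28.4% higher in F1 and lower in F3, and 27.1% lower in F1 and higher in F3. Across genes, which are not independent replicates, the F1 and F3 differences had a Pearson r of 0.01 and a Spearman rho of -0.153; the pairs share no array. The scatter of the differences thus had a broad centre, with SDs of 0.217 in F1 and 0.186 in F3, and few genes in its corners.

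**Figure D1:**
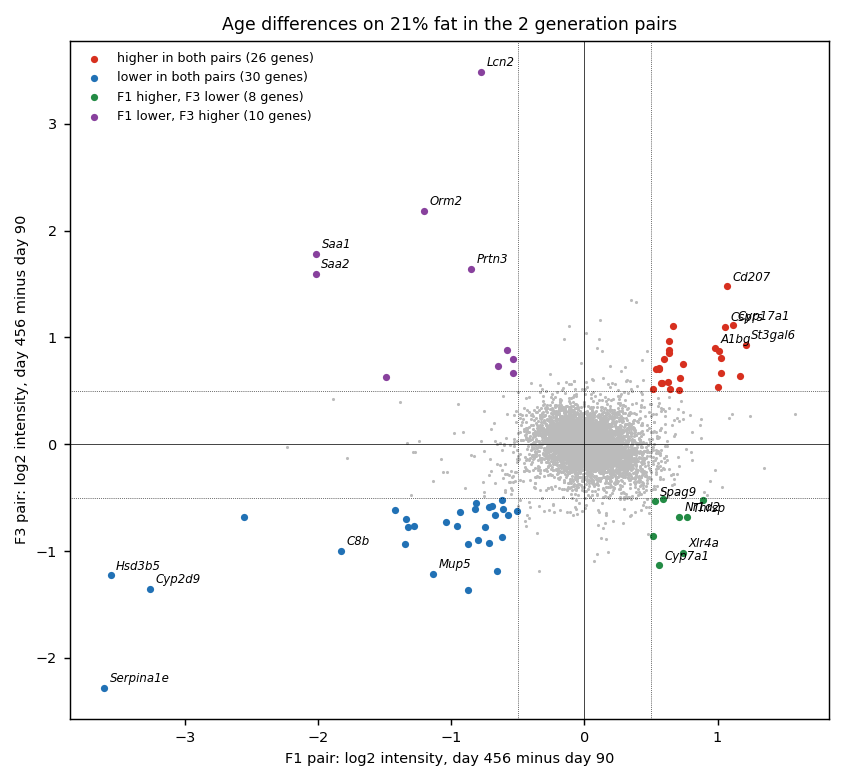
Each point is a gene, with its log2 difference (day 456 minus day 90) in the F1 pair on the x axis and in the F3 pair on the y axis; dotted lines mark the minimum of 0.5. The 26 genes higher in both pairs and the 30 lower in both lie in opposite corners, and Saa1, Saa2, Orm2, Prtn3 and Lcn2 stand out among the 10 that were lower in F1 and higher in F3.

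A limma fit of age with generation as a term, on the 4 arrays, called no gene at an adjusted p of 0.05, with 0.0% of genes higher and 0.0% lower at day 456. It had 1 residual degree of freedom and a median standard error of 0.113. At an unadjusted p of 0.05 it returned 250 higher and 177 lower genes, together 4.77% of those tested. The 5 genes with the smallest p were Serpina1e (mean difference -2.94 ± 0.29 SE), Csprs (1.08 ± 0.12), Cd207 (1.28 ± 0.14), Tmem45b (0.63 ± 0.07) and Cyp17a1 (1.11 ± 0.14), each with an adjusted p of 0.135 by limma and n = 2 arrays per age. The fit on all 8 arrays also called none for this contrast, and its smallest adjusted p was 0.0646; without F3 21% D90 that fit called 1 higher and 19 lower genes. With quantile normalization the 4-array fit called 14 higher and 18 lower genes, with no filter 18 and 21, and with robust eBayes 12 and 11. The genes past the minimum in both pairs are therefore described by their values, with no test.

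The genes higher at day 456 in both pairs included 3 of the female-biased list. Cyp17a1, the enzyme that makes androgen precursors and is higher in female than male mouse liver, read 10.82 (F1) and 11.10 (F3) at day 90 and 11.93 and 12.21 at day 456. Both older arrays were above both younger ones, and the differences of 1.11 and 1.12 were nearly the same in the 2 generations. A1bg, a plasma glycoprotein also higher in females, read 11.02 and 11.74 at day 90 and 11.999 and 12.64 at day 456. Ntrk2, the receptor for brain-derived neurotrophic factor, read 7.70 and 8.07 at day 90 and 8.71 and 8.95 at day 456. For both genes each older array was above each younger one. Cyp2b13, a P450 of the same list, went the other way, with -1.32 and -0.77. The 14 measured female-biased genes had a median difference of 0.26 in F1 and -0.04 in F3, with 6 genes higher and 4 lower in both pairs, against 22.0% and 22.5% of all genes.

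Cd207, a C-type lectin of Langerhans cells, read 7.51 and 7.71 at day 90 and 8.59 and 9.19 at day 456, and both older arrays were above the highest 5% fat array, 8.49. S100a8, a calcium-binding protein abundant in neutrophils, read 9.06 and 8.88 at day 90 and 9.72 and 9.98 at day 456. The macrophage lysozyme Lyz2 read 10.46 and 10.71 at day 90 and 11.09 and 11.60 at day 456. A second Lyz2 probe gave 0.89 in F1 and 0.13 in F3, so it did not pass the minimum in both pairs. In all 3 genes the ages did not overlap on the probe used, as in every gene higher by the minimum in both pairs. Slc4a1, the anion exchanger of red cells, had differences of 0.64 in F1 and 0.96 in F3. In bulk liver, a change in the number of cells of a type and a change in RNA per cell cannot be told apart.

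The marker lists of those cells gave smaller differences. Of 7 measured neutrophil markers 6 were higher in both pairs (medians 0.13 in F1 and 0.31 in F3), and their summed intensity was 1642.5 in F1 and 1480.5 in F3 at day 90 and 2103.1 and 2342.6 at day 456. Ltf, a granule protein, went against the others with -0.28 and -0.03. Of 12 macrophage markers 7 were higher in both pairs and none lower in both, with medians of 0.22 and 0.10. The Kupffer cell receptor Vsig4 differed by 1.11 in F1 and 0.28 in F3, whereas Adgre1 (F4/80) differed by 0.59 and -0.52. Among 5 markers of B and plasma cells, 4 were higher in both pairs, led by Mzb1 with 0.43 and 0.47. Cd37 (6.92 to 6.98), Cd79a (6.99 to 7.095) and Blnk (6.975 to 7.16) read near the filter bound of 6.95. The neutrophil markers Camp (6.97 to 7.15) and Csf3r (7.03 to 7.10) did too, so the directions of all these are uncertain. Of 6 red cell markers 5 were higher in both pairs, with medians of 0.38 and 0.22. The same share over all genes was 22.0%.

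Among stromal genes, Acta2, the smooth muscle actin of myofibroblasts and vessel walls, read 8.68 and 9.12 at day 90 and 9.71 and 9.93 at day 456. Its 5% fat arrays all lay between 8.76 and 8.87, below both older 21% arrays. The other, dimmer Acta2 probes gave smaller differences, from 0.22 to 0.46 in F1 and from 0.11 to 0.33 in F3. Of 8 measured stellate cell markers 6 were higher in both pairs (medians 0.36 and 0.20), among them the vitamin A enzyme Lrat with 0.53 and 0.20 and the matrix proteoglycan Dcn with 0.52 and 0.20. The 14 genes of the matrix list had medians of 0.01 and -0.03, with 2 higher and 2 lower in both pairs. Over all genes 22.0% were higher and 22.5% lower in both.

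Among the other leading genes, Csprs read 7.65 and 7.59 at day 90 and 8.71 and 8.69 at day 456. St3gal6, a sialyltransferase, differed by 1.21 in F1 and 0.93 in F3. Wfdc2, a secreted whey-acidic-protein family member, differed by 0.74 and 0.76, and Serpina7, the thyroxine-binding globulin, by 1.03 and 0.67. The other 13 of the 26 genes were Gas6, Aatk, Lgals1, Mmd2, Plekhb1, Paqr9, Them7, Serpina12, Tmem45b, Hspb1, Rcan2, Lyz1 and Gpc1, with differences from 0.52 to 1.17 in F1 and from 0.51 to 0.85 in F3. Slpi was the last inside the minimum at 0.71 and 0.51. Mustn1 was the first outside it, at 0.47 and 0.87. For all 26 genes both day 456 arrays were above both day 90 arrays. Their choice by the minimum in both pairs largely brings this about, and the share over all genes was not counted. With the mean of the kept probes of each gene, 19 of the 26 stayed past the minimum in both pairs. Dimmer second probes of Wfdc2 (0.39 and 0.13), Paqr9 (0.74 and 0.14) and Rcan2 (0.6 and 0.3) did not pass it in both.

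The 3 genes with the largest mean differences in the set lower in both pairs were of the male-biased list. Serpina1e, a mouse paralogue of alpha-1-antitrypsin, read 13.03 in F1 and 11.51 in F3 at day 90 and 9.42 and 9.23 at day 456. Cyp2d9, a steroid hydroxylase of male liver, read 11.33 and 9.60 at day 90 and 8.07 and 8.24 at day 456. Hsd3b5, a steroid reductase of male liver, read 10.39 and 8.07 at day 90 and 6.83 and 6.84 at day 456, both older values below the filter bound. In each of these genes the F1 21% D90 array was above every other array, and the older F1 and F3 arrays were close together. The F3 pair, which does not contain that array, had differences of -2.28, -1.35 and -1.23 in the same 3 genes. In the 8-array fit without F1 21% D90 the age difference on 21% fat was -2.02 for Serpina1e, -1.46 for Cyp2d9 and -1.13 for Hsd3b5.

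Of the 17 measured male-biased genes 13 were lower in both pairs and none was higher in both, against 22.5% of all genes lower in both; without Cyp4a12a and Elovl3 it was 12 of 15. Of them 8 passed the minimum in both pairs, and the list's median difference was -1.33 in F1 and -0.68 in F3, against medians of 0.001 and -0.002 over all genes. Mup21, a major urinary protein gene, differed by -2.56 in F1 and -0.68 in F3. Egfr, the epidermal growth factor receptor, read 11.42 and 10.95 at day 90 and 10.08 and 10.25 at day 456. Keg1 differed by -1.04 and -0.73. Cyp4a12a, a fatty acid hydroxylase of male liver, read 9.11 on F1 21% D90 and at most 6.92 on the other arrays, and the fatty acid elongase Elovl3 8.13 and at most 6.86, so their age difference in F3 could not be read.

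Genes of growth hormone and insulin signalling formed 1 list. Socs2, a feedback inhibitor of growth hormone signalling, read 11.72 and 11.57 at day 90 and 10.78 and 10.93 at day 456. Of 13 measured insulin and growth hormone signalling genes 9 were lower in both pairs, against 22.5% of all genes, and 2 were higher in both, with medians of -0.15 in F1 and -0.22 in F3. Those 2 were the transcription factors Bcl6 (0.69 and 0.24) and Stat5a (0.23 and 0.11). Cish, a relative of Socs2, differed by -1.06 and -0.26. Igfbp2, an insulin-like growth factor binding protein, differed by -0.75 and -0.49, just short of the minimum. The growth hormone receptor Ghr had 0.30 in F1 and -0.60 in F3. A second, dimmer Ghr probe gave -0.11 and -0.05, which is not opposite.

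The complement genes C8b and C8a were lower in both pairs. C8b, the beta chain of this part of the membrane attack complex, read 11.42 and 10.72 at day 90 and 9.59 and 9.72 at day 456. C8a, its alpha chain, differed by -0.96 in F1 and -0.76 in F3, whereas C8g, the gamma chain, differed by 0.11 and 0.12. The remaining terminal components were uneven, with C6 at -1.28 and -0.08 and C9 at -0.56 and -0.01. A second, dimmer C9 probe gave -0.24 and -0.33, so the unevenness of C9 depended on the probe. C8a, C8b and C6 are also on the male-biased list and were highest of the 8 arrays on F1 21% D90. Of 16 measured complement genes 7 were lower and 2 higher in both pairs, against 22.5% and 22.0% of all genes. Of 16 coagulation genes 10 were lower and 1 higher in both, with medians of -0.15 and -0.13.

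Several genes of periportal hepatocytes, the cells nearest the incoming portal blood, were lower. Etnppl, a phospholyase of ethanolamine phosphate, read 9.004 and 9.099 at day 90 and 8.13 and 8.16 at day 456. The adhesion protein Cdh1 differed by -0.72 in F1 and -0.92 in F3. Cps1, the first enzyme of the urea cycle, differed by -0.62 and -0.53. Of 12 measured periportal genes 7 were lower and 2 higher in both pairs, beside the same shares of all genes, with medians of -0.44 and -0.29. The 12 pericentral genes had medians of 0.16 and -0.07, with 2 lower in both.

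Drug-metabolising cytochrome P450 genes contributed Cyp2b13 (-1.32 in F1 and -0.77 in F3), Cyp2b10 (-0.74 and -0.77), Cyp1a2 (-0.61 and -0.61) and Cyp2d9. Over the 24 measured P450 genes the median was 0.04 in F1 and -0.25 in F3. Of them 10 were lower in both pairs, against 22.5% of all genes. Egr1, an immediate-early transcription factor, read 11.41 and 11.46 at day 90 and 10.54 and 10.10 at day 456, and the ages did not overlap. Of the 12 measured immediate-early genes 2 were lower and 2 higher in both pairs, with medians of 0.15 in F1 and -0.04 in F3. Mup5, Ces3b and Abca8a, respectively a urinary protein, a carboxylesterase and a lipid transporter, differed by -1.14, -1.35 and -0.80 in F1 and by -1.21, -0.93 and -0.90 in F3. A second, dim Mup5 probe gave -0.26 and 0.09. The other 10 of the 30 genes were Krt23, Kyat1, Inmt, Dnaic1, Sort1, Cyp4f14, Mug1, Sult2a8, Fkbp11 and H2ac24, with differences from -1.42 to -0.58 in F1 and from -1.18 to -0.55 in F3. H2ac10 was the last gene inside the minimum, at -0.51 and -0.63, and Tk1 the first outside, at -0.50 and -0.58. For all 30 genes both day 456 arrays were below both day 90 arrays, which their choice by the minimum in both pairs largely brings about. The share over all genes was not counted. With the mean of the kept probes of each gene, 28 of the 30 stayed past the minimum in both pairs.

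**Figure D2:**
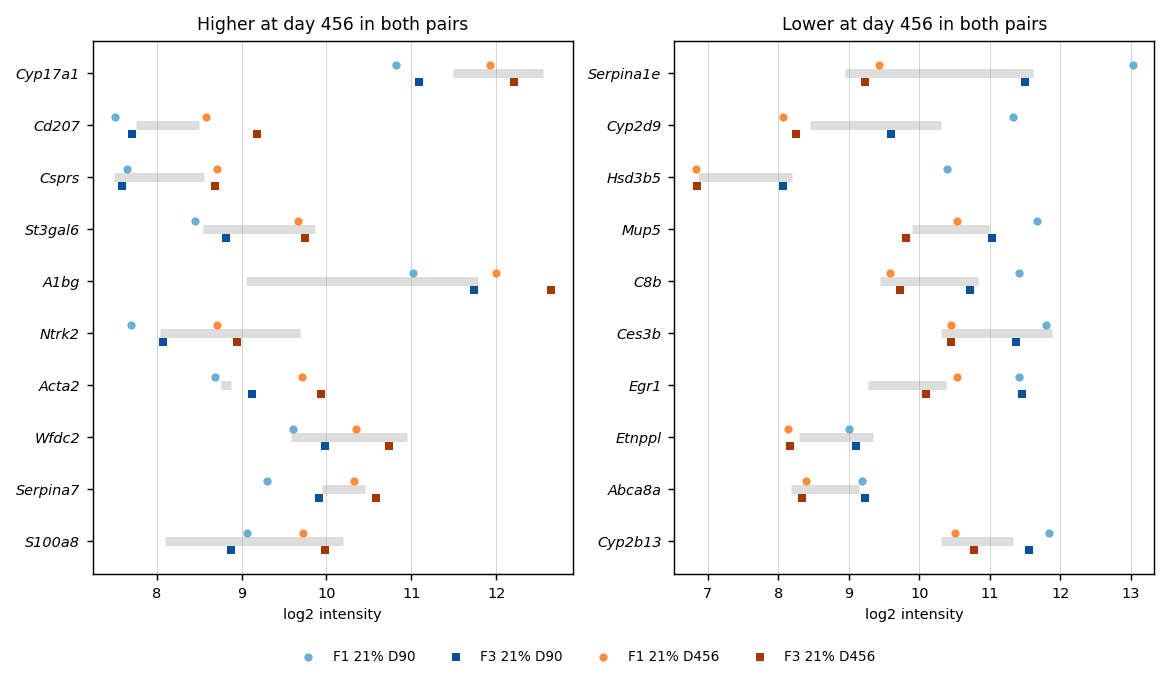
Log2 intensity (x axis) of the 10 leading genes of each direction on the 4 arrays at 21% fat; circles are F1, squares F3, blue day 90 and orange or brown day 456, and the grey bar spans the 4 arrays at 5% fat. In each gene the ages separate, which the choice by the minimum in both pairs largely brings about. For Serpina1e, Cyp2d9 and Hsd3b5 the F1 21% D90 array lies above all others.

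Leaving out F1 21% D90 and setting both day 456 arrays against F3 21% D90, which they then share, 27 genes were higher and 32 lower by at least 0.5, and 16 of the 26 and 21 of the 30 were among them. The same count gave 48 and 70 without F3 21% D90, 49 and 57 without F1 21% D456, and 33 and 35 without F3 21% D456.

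The same genes were read on the 5% fat arrays, which the minimum of 0.5 did not use. The filter on dim probes and the choice of probe did use all 8 arrays. Of the 26 higher genes 20 were higher in both generation pairs at 5% fat, against 26.1% of all genes, and 11 passed 0.5 in both, against 1.42%. Of the 30 lower genes 28 were lower in both pairs, against 45.4%, and 13 passed 0.5 in both, against 0.906%. Cyp17a1 differed by 0.57 in F1 and -0.37 in F3 at 5% fat, Acta2 by 0.04 and -0.08, and Serpina7 by -0.16 and 0.16. Cyp2b13 differed by -0.74 and 0.27. Serpina1e differed there by -1.97 and -2.16. The 5% arrays also differed in other tissue: summed pancreatic marker intensity was 2657.2 and 9903.0 at day 90 and 17349.5 and 26779.0 at day 456, and its part in these values was not tested. An age-by-diet term in the 8-array fit called no gene (smallest adjusted p 0.327 by limma, with 1055 genes at an unadjusted p of 0.05), so none of these genes was shown to differ between diets.

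Genes that went opposite ways were led by acute phase genes, lower with age in F1 and higher with age in F3. Saa1, a serum amyloid A gene, read 9.46 in F1 and 7.30 in F3 at day 90 and 7.45 and 9.08 at day 456. Saa2, its neighbour, read 9.25 and 7.16 at day 90 and 7.24 and 8.75 at day 456. The F1 21% D90 and F3 21% D456 arrays were thus high and the other 2 low, and the 5% fat arrays lay between 7.11 and 8.06 for these genes. Orm2, an orosomucoid gene, read 12.05 and 9.57 at day 90 and 10.85 and 11.76 at day 456. Lcn2, lipocalin 2, which binds bacterial siderophores, read 11.22 and 8.40 at day 90 and 10.44 and 11.89 at day 456. Prtn3, a serine protease of neutrophil granules, read 8.48 and 6.83 at day 90 and 7.63 and 8.47 at day 456. Saa1 and Saa2 are near-identical, as are several Orm, Mup and Serpina1 genes, and whether 1 probe reads several copies was not tested.

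The promoters of the 4 liver-secreted members of this group are shown because they moved together. They are RefSeq sequences of build GRCm38.p6, from 250 bases before to 50 after each start, 5′ to 3′, with matches to the C/EBP motif TTGCNNAA on either strand in capitals; C/EBP factors are known acute phase regulators.
Saa1 (chr7:46742931-46743230, minus strand): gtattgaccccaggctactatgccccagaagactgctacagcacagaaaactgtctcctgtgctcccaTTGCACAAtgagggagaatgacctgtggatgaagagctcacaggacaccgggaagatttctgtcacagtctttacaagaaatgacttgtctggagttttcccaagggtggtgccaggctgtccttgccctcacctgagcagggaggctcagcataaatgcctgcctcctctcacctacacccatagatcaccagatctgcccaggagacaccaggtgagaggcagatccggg
Saa2 (chr7:46751583-46751882, plus strand): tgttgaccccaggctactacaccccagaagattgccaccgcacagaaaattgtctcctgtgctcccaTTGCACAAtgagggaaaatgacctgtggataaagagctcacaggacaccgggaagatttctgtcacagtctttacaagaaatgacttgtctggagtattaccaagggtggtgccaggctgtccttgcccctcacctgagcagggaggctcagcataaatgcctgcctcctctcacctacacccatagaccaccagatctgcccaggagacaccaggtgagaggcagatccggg
Orm2 (chr4:63362199-63362498, plus strand): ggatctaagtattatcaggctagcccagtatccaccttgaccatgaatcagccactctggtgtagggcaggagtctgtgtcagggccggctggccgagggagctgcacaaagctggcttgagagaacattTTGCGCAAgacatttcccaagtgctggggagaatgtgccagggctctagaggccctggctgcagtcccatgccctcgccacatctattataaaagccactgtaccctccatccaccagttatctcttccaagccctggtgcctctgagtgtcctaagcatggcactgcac
Lcn2 (chr2:32387690-32387989, minus strand): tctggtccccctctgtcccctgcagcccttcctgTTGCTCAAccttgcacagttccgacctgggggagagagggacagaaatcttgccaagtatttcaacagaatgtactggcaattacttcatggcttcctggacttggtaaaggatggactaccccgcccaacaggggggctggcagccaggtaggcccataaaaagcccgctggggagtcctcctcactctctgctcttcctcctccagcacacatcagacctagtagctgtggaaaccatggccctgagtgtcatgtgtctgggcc
Each of these windows held 1 match, which began at -182 in Saa1, -183 in Saa2, -120 in Orm2 and -216 in Lcn2, counted from the start. The motif was found in 10.8% of the 27025 genes with a promoter in that table. Of the 8 genes in the group lower in F1 and higher in F3 that had a promoter there, 4 held it, and of 21 acute phase genes 10 did. It was also in 5 of 19 promoters of the genes higher in both pairs and in 6 of 24 of those lower in both. The STAT motif TTCNNNGAA was in 5 of the 21 acute phase promoters (23.8%), against 8.47% of all genes. The 4 windows shown held no match to it or to the NF-kB motif, which was in 4.35% of all genes; a match is a description, not a binding site.

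Over the 24 measured acute phase proteins, 12 were lower in F1, against 49.6% of all genes, and 22 were higher in F3, against 49.1%, and the medians were -0.02 and 0.32. In F3, the glycoprotein Lrg1 was higher by 1.04, orosomucoid Orm1 by 0.62, lipopolysaccharide-binding protein Lbp by 0.59 and Saa4 by 0.57. In F1 the same genes read 0.01, 0.14, -0.08 and 0.21. Saa3, the serum amyloid A of macrophages and other cells, differed by -1.89 in F1 and 0.42 in F3. The fibrinogen chain Fgb differed by -0.17 and 0.13, but its probe read 6.92 to 7.085, near the filter bound of 6.95, so its directions are uncertain. Hepcidin, Hamp, differed by -0.08 and -0.12. The 14 genes of acute phase signalling had medians of 0.04 and 0.09.

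The other genes lower in F1 and higher in F3 were Dnajc12 (-0.65 and 0.73), a co-chaperone, Dmbt1 (-1.49 and 0.63), a mucosal scavenger receptor, Gadd45g (-0.58 and 0.89), a stress-induced gene, Lrfn3 (-0.54 and 0.67) and Insig2 (-0.54 and 0.79), which holds sterol regulatory proteins in the endoplasmic reticulum. Insig2 was the last inside the minimum, and Agpat2 the first outside at -0.50 and 0.49.

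The 8 genes higher with age in F1 and lower in F3 included regulators and enzymes of lipid and bile acid metabolism. Cyp7a1, the rate-limiting enzyme of bile acid synthesis, read 11.49 and 11.80 at day 90 and 12.05 and 10.67 at day 456. Thrsp, which promotes lipogenesis, read 10.56 and 11.13 at day 90 and 11.33 and 10.45 at day 456. The clock repressor Nr1d2 read 8.48 and 8.91 at day 90 and 9.20 and 8.23 at day 456. In each the F1 21% D456 array was highest and the F3 21% D456 array lowest of the 4. The others were Xlr4a (0.74 and -1.02), Spag9 (0.53 and -0.53), Uqcrb (0.89 and -0.53), Coq10b (0.52 and -0.86) and Adgre1. A second bright Coq10b probe gave -0.36 and -0.55, which is not opposite. A second, dimmer Spag9 probe gave 0.19 and -0.4, below the minimum in both pairs. For Adgre1 a second bright probe gave 0.30 and -0.09, the same directions with smaller differences, and a dim probe gave 0.00 and 0.04. Adgre1 was the last inside the minimum, and Dpyd, at 0.49 and -0.59, the first outside.

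**Figure D3:**
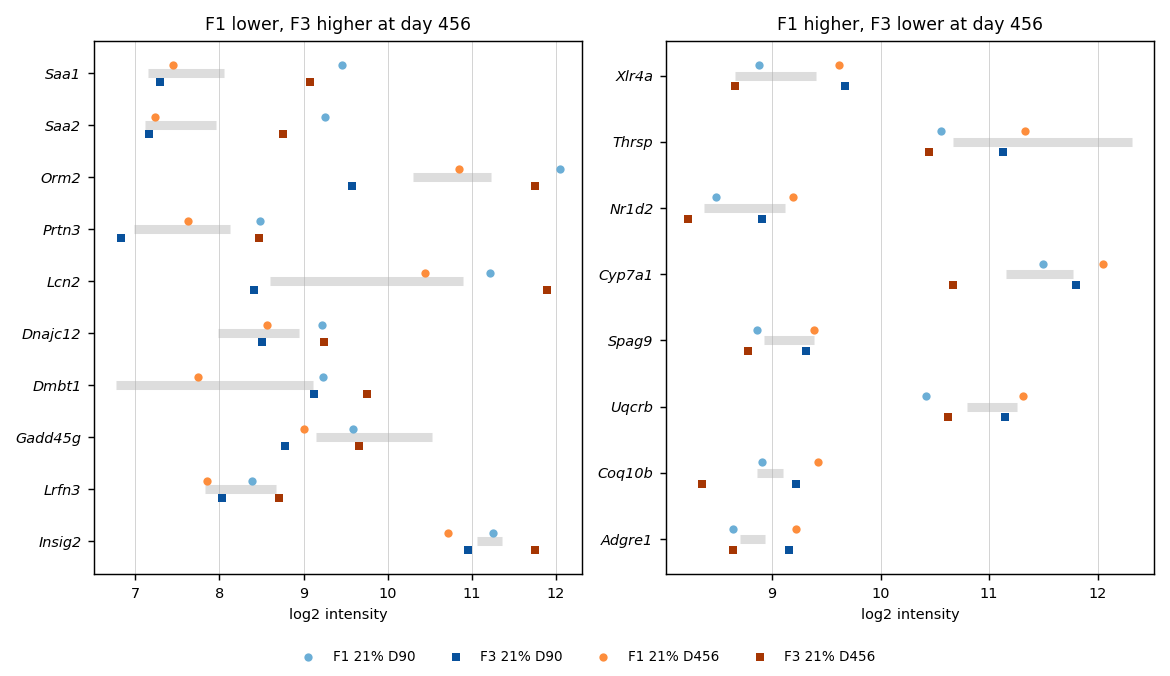
Log2 intensity (x axis) on the 4 arrays at 21% fat of the 10 genes lower in F1 and higher in F3, left, and the 8 genes with the reverse, right; circles are F1, squares F3, blue day 90 and orange or brown day 456, and grey bars span the 4 arrays at 5% fat. For Saa1 and Saa2 the F1 21% D90 and F3 21% D456 arrays lie above the grey bar.

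Many lipid synthesis genes were higher with age in F1 and lower in F3, but none passed the age-by-generation test given further on. Of 18 fatty acid and triglyceride synthesis genes 14 were higher in F1 and lower in F3, none was higher in both, and the medians were 0.24 and -0.17; over all genes 28.4% took those directions. Agpat2 and Dgat1 went the reverse way, and Lpin1 and Dgat2 were lower in both. Me1, malic enzyme, differed by 1.35 in F1 and -0.23 in F3, Acss2 by 1.04 and -0.40, Acly, ATP citrate lyase, by 0.92 and -0.47, and Scd1, stearoyl-CoA desaturase, by 0.35 and -0.67. A second Acss2 probe, dim, gave -0.08 and 0.09. Of 18 cholesterol synthesis and uptake genes 17 were higher in F1 and 7 in F3, and these 7 were higher in both, with medians of 0.39 and -0.04. Over all genes 50.4% were higher in F1, 49.1% in F3 and 22.0% in both. Fdps and Sqle, enzymes of the pathway's middle steps, differed by 0.88 and 0.71 in F1 and by 0.23 and 0.22 in F3. A second, dimmer Sqle probe gave 0.03 and 0.25.

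Clock genes showed the same split in part. Of 16 measured, 9 were higher in F1 and lower in F3, against 28.4% of all genes, with medians of 0.04 and -0.21. Bhlhe40 differed by 0.90 and -0.45, Noct by 0.98 and -0.24, Dbp by 0.178 and -1.005, and Nfil3, which opposes Dbp, by -0.95 and 0.37. The hour of sampling was not given in the labels used here.

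The test of the difference between generations, an age-by-generation term on the 21% arrays with its error from the 5% arrays (1 residual degree of freedom), called 14 genes, 0.157% of those tested. The count was 0 without the intensity trend and 6 with a stricter filter or with the mean of kept probes, and in simulated data the test made too many false calls in some runs. All 14 had a higher difference in F3 than in F1, and 13 were highest of all 8 arrays on F1 21% D90. For Prtn3, 1 of the 13, that array and F3 21% D456 were nearly level (8.477 and 8.474). A high F1 21% D90 value itself raises the difference tested, and the share of all genes highest on F1 21% D90 was not counted. The 3 genes with the smallest p, Cyp4a12a, Elovl3 and Scara5, a ferritin receptor, were below the filter bound on the other 7 arrays. They entered the test through F1 21% D90 alone and took their error from arrays at that floor, so their calls were fixed by the filter and no p is given; F3 minus F1 was 2.21, 1.34 and 1.27.

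Among the other 11, Saa1, Saa2, Orm2 and Prtn3 each had an adjusted p of 0.00677 by limma. Lcn2, the gene not highest on F1 21% D90, was highest on F3 21% D456 (F3 minus F1 4.27 ± 0.52 SE, adjusted p = 0.0139 by limma). Susd4, Tff3, Nat8, Asns, Hsd3b5 and Saa3 completed the group. Their F3 differences were -0.14, -0.13, 0.03, -0.07, -1.23 and 0.42, and their F1 differences -1.07, -1.78, -0.78, -1.27, -3.56 and -1.89. The first 4 were dim on the arrays other than F1 21% D90, where the highest readings were 7.08, 7.15, 7.03 and 7.33. No test of the difference is possible without F1 21% D90, since the F1 pair then has no day 90 array.

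**Figure D4:**
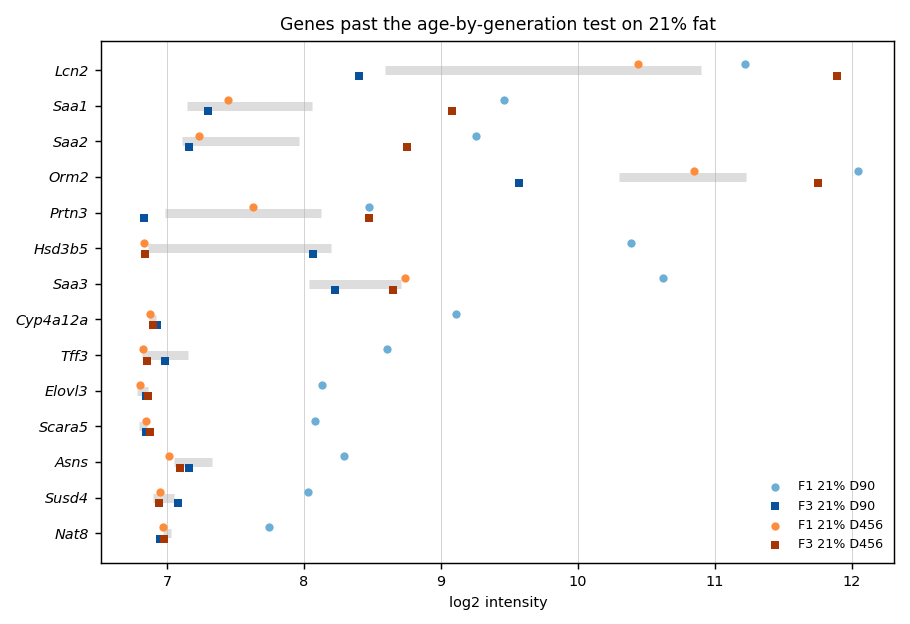
Log2 intensity (x axis) of the 14 genes that passed the age-by-generation test, ordered by the size of the difference; circles are F1, squares F3, blue day 90 and orange or brown day 456, and grey bars span the 4 arrays at 5% fat. In 13 of the genes the light blue circle of F1 21% D90 is the highest point of all, though for Prtn3 it is nearly level with F3 21% D456.

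The remaining lists had smaller differences, read against 22.0% of all genes higher and 22.5% lower in both pairs. Of 19 cell cycle genes 15 were lower in both pairs and none was higher in both, with medians of -0.07 and -0.10. Several read near the filter bound of 6.95 on all 4 arrays, so their directions are uncertain. Among them were Top2a (6.93 to 7.04) and Rrm2 (6.97 to 7.03). The S-phase helicase genes Mcm5 and Mcm6 differed by -0.10 and -0.13 in F1 and by -0.43 and -0.43 in F3. Of 13 heat shock genes 10 were higher in both and none lower in both, with medians of 0.19 and 0.15, led by Hspb1 (0.54 and 0.71) and the co-chaperone Bag3 (0.36 and 0.50). Of 16 lipid droplet genes 9 were higher in both, with medians of 0.06 in F1 and 0.24 in F3. The droplet coat protein Plin4 differed by 0.39 and 1.33 and Plin2 by 0.18 and 0.57. Of 33 proteasome genes 17 were higher in both, with medians of 0.06 and 0.12. Other lists had medians of opposite sign in the 2 pairs. Interferon-stimulated genes had medians of 0.03 and -0.15, with 8 of 25 lower and 4 higher in both, among the lower Bst2 at -0.44 and -0.76. Ribosomal protein genes had medians of -0.12 and 0.07, and respiratory chain genes of -0.05 and 0.01. No member of any list passed the age test.

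**Figure D5:**
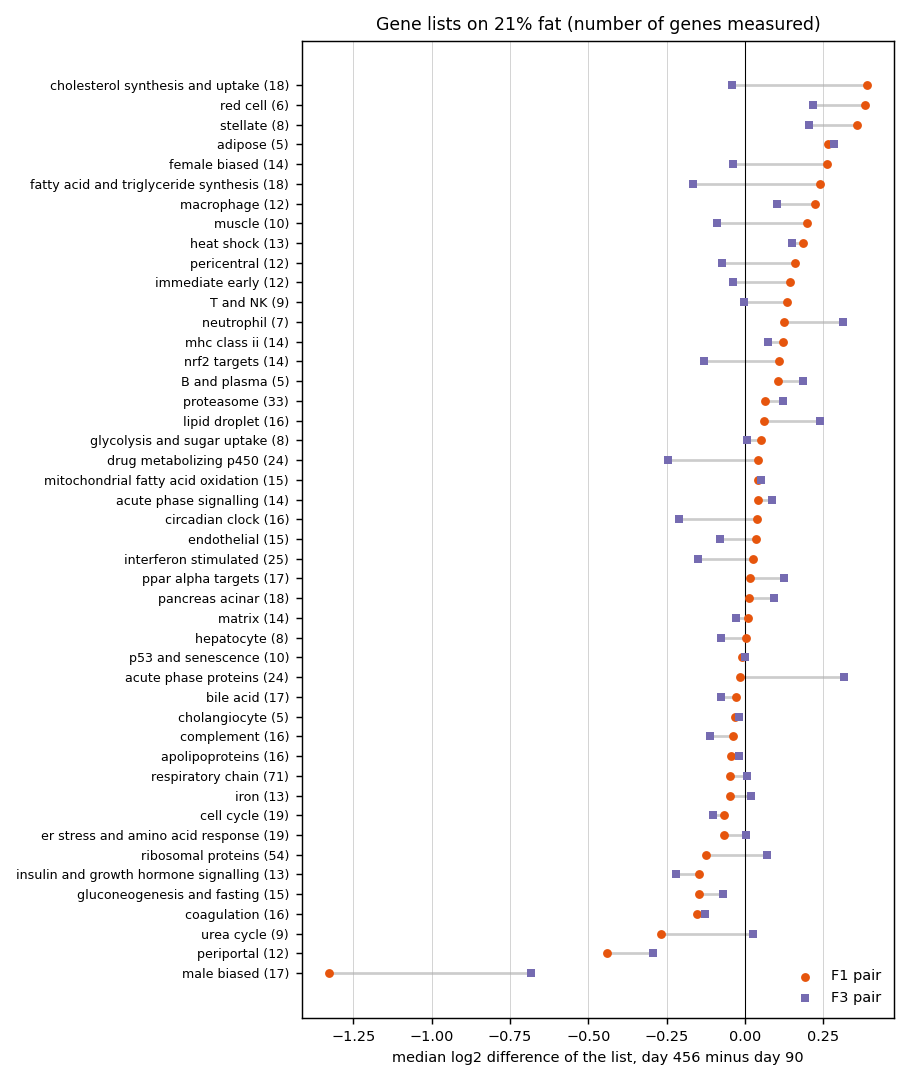
Median log2 difference (day 456 minus day 90, x axis) of each gene list with at least 5 measured genes in the F1 pair (circles) and the F3 pair (squares), ordered by the F1 value, with the number of genes measured in brackets. Male-biased genes lie lowest in both pairs, and acute phase, fatty acid synthesis and P450 lists are among those whose pairs lie apart.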

How the data were processed

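Liver RNA from 8 samples was hybridised to Illumina bead arrays, and the 4 arrays at 21% corn oil were compared by age within generation. The authors deposited linear intensity per probe, with the normalisation method not given in the sources used here. Arrays were nearly equal in mean and median, and values had no background subtracted (lowest value 101.4). Here they were log2 transformed, 12848 of 25697 probes were kept whose mean over the 8 arrays exceeded 6.95 (the median probe), and each gene took its brightest kept probe. Probe names came from the platform annotation and a GRCm38.p6 gene table: 23978 probes had 1 symbol, 0 several and 1719 none.

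Age was fitted with limma 3.58.1 in R 4.3.3, with generation as a term, an intensity trend and Benjamini-Hochberg adjustment over all genes (two-sided, threshold 0.05). The age-by-generation term took its error from the 5% arrays. With data simulated from these fits, the estimates of changed genes had the right sign, whether or not the tests called them. The share of changed genes called is not given here. In some runs the age-by-generation test made more false calls than its threshold allows. Arrays, not depth, limit the precision. Each group has 1 array.

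Gene sets, the 50 gene lists and the tests were chosen with earlier results of these data known. Named genes were up to 10 per set with the largest smaller difference of the 2 pairs, the 5 genes with the smallest p for age, the 3 for age by generation, and up to 4 members per list by mean difference and by difference between pairs; other list members were picked with their values in view. The islet list had no measured gene, and lists not given in the text are in the plot of list medians unless they had under 5 genes. Alternatives covered scaling, floor, filter, probe choice, variance model, threshold, design and leaving out arrays; background subtraction and set counts with an array left out were added after seeing the data. Figures were drawn with matplotlib 3.10.9.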

Additional observations from a re-analysis of the deposited data

Results flagged for a closer look

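The effect of age differed between F1 and F3 on 21% fat by the limma age-by-generation test for 14 genes. Each had a larger F3 than F1 difference, by 4.27 for Lcn2, 3.80 for Saa1, 3.61 for Saa2, 3.39 for Orm2, 2.50 for Prtn3, 2.33 for Hsd3b5, 2.31 for Saa3, 2.21 for Cyp4a12a, 1.65 for Tff3, 1.34 for Elovl3, 1.27 for Scara5, 1.21 for Asns, 0.94 for Susd4 and 0.81 for Nat8, on the log2 scale. All but Lcn2 were highest of the 8 arrays on F1 21% D90, the array with raised Eif2s3y, though Prtn3 was nearly level there and on F3 21% D456. A high F1 21% D90 value itself raises F3 minus F1. Cyp4a12a, Elovl3 and Scara5 passed the filter through F1 21% D90 alone, which fixed their calls. Tff3, whose mean over the other arrays was below the filter bound, also passed only through F1 21% D90. The test called 0 genes without the intensity trend and made too many false calls in some simulated runs.

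A further 13 genes went opposite ways by at least 0.5 in the 2 pairs without passing that test. F3 minus F1 was 2.12 for Dmbt1, 1.46 for Gadd45g, 1.38 for Dnajc12, 1.33 for Insig2 and 1.21 for Lrfn3. It was -1.76 for Xlr4a, -1.69 for Cyp7a1, -1.45 for Thrsp, -1.42 for Uqcrb, -1.39 for Nr1d2, -1.38 for Coq10b, -1.10 for Adgre1 and -1.06 for Spag9. With 1 array per age and generation, no group was large enough to look for a single array far from its group.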

How the results depend on the processing

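The call of no gene for age did not hold under every setting. Higher and lower genes at an adjusted p of 0.05 numbered 12 and 11 with robust eBayes, 14 and 18 with quantile normalization and 18 and 21 with no filter on dim probes, and 250 and 177 at an unadjusted p of 0.05. Leaving out each 21% array in turn, in the 8-array fit, gave 0 to 1 higher and 0 to 19 lower genes; the most came without F3 21% D90, with 1 and 19. At 0.3, the sets held 66 genes higher in both pairs, 73 lower in both, 94 higher in F1 and lower in F3, and 36 the reverse; at 1 they held 3, 4, 0 and 3. With background subtracted they held 67, 51, 38 and 21, and with the mean of kept probes the set higher in F1 and lower in F3 held 5. With an array left out and the others sharing an array, genes higher in both differences numbered 27 to 49 and genes lower 32 to 70: without F3 21% D90 48 and 70, and without F1 21% D456 49 and 57. The age-by-generation test called 0 genes without the trend, 6 with a stricter filter, 6 with the mean of kept probes, 8 with background subtracted and 253 at an unadjusted p of 0.05. No gene of the 4 sets changed sign in either pair under another scaling, floor, filter, probe rule or background where it was measured, and no list median of at least 0.1 did. No paired analysis was possible because each group has 1 array; generation, which matches the arrays, is already a term of the fit. The causes of these shifts were not tested. With 1 array per age and generation, differences between animals cannot be told apart from those between groups.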
